A study of Mus musculus with 884 samples.

Results

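The centromere-proximal ends of the 19 mouse autosomes were followed through differentiation by single-cell Repli-seq. They were taken as all 80 kb bins that start from 2.9 Mb to below 6 Mb on chromosomes 1 to 19 of the mm9 build, which gave 722 of the 30890 autosomal bins, 38 on every chromosome, covering positions 2960001 to 6000000. In this assay a cell is sorted by DNA content, its genome is amplified and sequenced, and each bin is called replicated, not replicated or without data. The rule used position and no measured value, but it and the zones used below were chosen with earlier results of these data known.

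Mouse autosomes are acrocentric: the centromere lies almost at the start of the chromosome, buried in blocks of satellite repeats that cannot be assembled, and sequence positions begin on its far side. The first mapped bins are therefore the closest mapped neighbours of pericentromeric heterochromatin. Satellite heterochromatin generally replicates in the second part of S phase, whereas the gene-rich DNA of the arms generally replicates early. Replication timing is set in domains much longer than a gene, and many domains change timing when stem cells differentiate.

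CBMS1 embryonic stem cells, a female line of CBA/MsM strain background kept in 2i/LIF medium, formed the d0 group. The same line was sampled daily from d2 to d7 while it differentiated, first into epiblast-like cells and then, from d2 on, as floating aggregates in plain medium on the way to neurectoderm. Female epiblast stem cells (EpiSCs) of C57BL6 strain, grown with activin and FGF, were the separate primed pluripotent group. EpiSCs thus differed from the other groups in strain as well as in state. Labels gave a group to 877 of 884 cells, namely 805 S-phase and 72 G1 cells. Timing was compared in window cells, the 293 S-phase cells labelled with 40 to 70% of the genome replicated, of which 59 were d0, 35 d2, 13 d3, 18 d4, 20 d5, 21 d6 and 26 EpiSC cells, and the others d7 cells. The share of a bin is the percentage of window cells with a call in which it was replicated, taken for bins called in at least 50% of a group's window cells. A high share means early replication. Mean scores, the percentage of a cell's called bins that were replicated, lay between 52.3% at d2 and 57.1% in EpiSCs, with 56.3% at d0 and 56.4% at d7. The labels name no separate cultures within a group, so cells were not taken as replicates and no test was run, and 95% Clopper-Pearson intervals cover counting error only.

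Some cells went against their group. The calls of 3 d0, 1 d4 and 3 d7 window cells did not follow the mean profile of their own group, with an area under the curve as low as 0.363 at d0 where 0.8 was taken as the minimum. The 3 at d0 were among the 9 d0 window cells deposited with the present series, the other 50 having come from a previous one. Between those 9 and 50 cells, 15.8% of 684 end bins were earlier and 16.7% later by a share of 0.3 or more in the present cells, against 11.5% and 10.9% of all autosomal bins. Without the 3 cells, 10.2% and 0.876% of 685 end bins were, against 5.55% and 0.949% of all bins. At d7 the 66 present and 35 previous cells differed in 1 and 13 of 692 end bins (0.145% and 1.88%, against 0.175% and 0.286% of all bins). Some results for the ends as a whole, and most of those over present cells alone, are given with and without the cells that did not follow their mean profile. The remaining results are given only with these cells kept in. The authors also corrected each cell with 1 of 14 merged G1 controls, and almost every control served a single group, so control and group cannot be told apart except where stated.

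The ends were called almost as well as the rest of the genome, apart from chromosome 14 and the outermost bin. Over all grouped cells 95.1% of calls at the ends were made, against 97.7% in the bins from 6 Mb on and 98.8% in the last 3 Mb of each chromosome. Leaving out chromosome 14, the ends reached 98.4%. The first bin of each end was called in 70.0% of cells on average, the second in 91.05%, and the bins after them, without chromosome 14, in 99.3%. Of the 722 bins, 667 were called in at least 90% of cells and 26 in under 50%, of which 23 lay on chromosome 14. The other 3 were the first bins of chromosomes 9, 16 and 19, called in 0.114%, 23.9% and 0% of cells. With these bins, chromosomes 16 and 19 had the lowest call rates after chromosome 14, at 95.4% and 96.1%.

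The end of chromosome 14 was called in 34.8% of cells. From 3360001 to 3840000 a stretch of bins included the 5 that were never called, and no bin of this end was called in more than 71.2% of cells, although the rest of the chromosome reached 96.9%. Its call rate also moved with the G1 control, from 3.85% to 55.1% between controls, and with the group, from 4.56% at d3 to 54.4% at d6. G1 cells, which should hold no replicated DNA, give the error of the calls. Their replicated calls made up 1.79% of calls at the ends and 1.36% in the bins from 6 Mb on, but 9.56% in the first bins and 11.9% on the chromosome 14 end. Beyond the second bin and without chromosome 14 the G1 rate was 1.35%. The chromosome 14 end is therefore given only by its level below.

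Averaged over their bins, the ends replicated earlier than the rest of the autosomes at d0, and later at d7. By chromosome, 10 of 19 ends at d0 and 9 of 19 at d7 lay above the rest of their own chromosome. The mean share over the end bins, at d0 and then daily from d2 to d7, was 61.6%, 60.4%, 65.6%, 56.3%, 58.1%, 53.6% and 51.2%, and it was 64.8% in EpiSCs. All other bins from 6 Mb on stood at 56.4%, 52.2%, 53.5%, 53.3%, 55.4%, 54.5% and 56.5% in the same order, and at 56.9% in EpiSCs. The ends minus the rest thus came to 5.24, 8.26, 12.1, 3.02, 2.70, -0.95 and -5.30 percentage points over these days, highest at d3 and below 0 only at d6 and d7. Chromosome 14 entered these means with 7 bins at d0, then daily from d2 with 16, 0, 22, 21, 22 and 11, and with 22 in EpiSCs. Its mean share was low, at 12.6% at d4, 0% at d5 and 16.6% at d6. How much of the course, and of the small negative value at d6, came from these bins was not tested. Leaving out chromosome 14, the end bins differed by -10.3 points from d0 to d7. EpiSCs, at 7.92 points above the rest, stood on the side of d0 and not of d7. The last 3 Mb of each chromosome, by comparison, held between 64.8% and 69.9% in every group. The neighbouring bins from 6 to below 9 Mb were also lower at d7, at 48.3%, than at d0 (53.8%) and in EpiSCs (53.7%).

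The bins closest to the centromere moved most. In the first zone, the 13 bins of each end that start below 4 Mb, the mean share over the same days was 66.1%, 66.5%, 73.2%, 59.3%, 56.1%, 50.7% and 47.3%, and 67.1% in EpiSCs. Relative to the rest of the autosomes this was 9.70, 14.3, 19.8, 5.96, 0.694, -3.79 and -9.20 points from d0 to d7, and 10.2 in EpiSCs. The shares at d0 and d7 were 62.5% and 55.4% from 4 to below 5 Mb, and 55.9% and 50.7% from 5 to below 6 Mb. Stepping along all 19 chromosomes in 1 Mb steps, the first step had the most negative difference from d0 to d7 among the first 20, at -18.7 points. The next lowest was step 17, at -14.3 points, so other stretches of the arms also moved this way. The order of d0, d7 and EpiSC in the first zone was the same without the cells that did not follow their mean profile, at 9.94, -9.58 and 10.2 points above or below the rest.

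**Figure D1:**
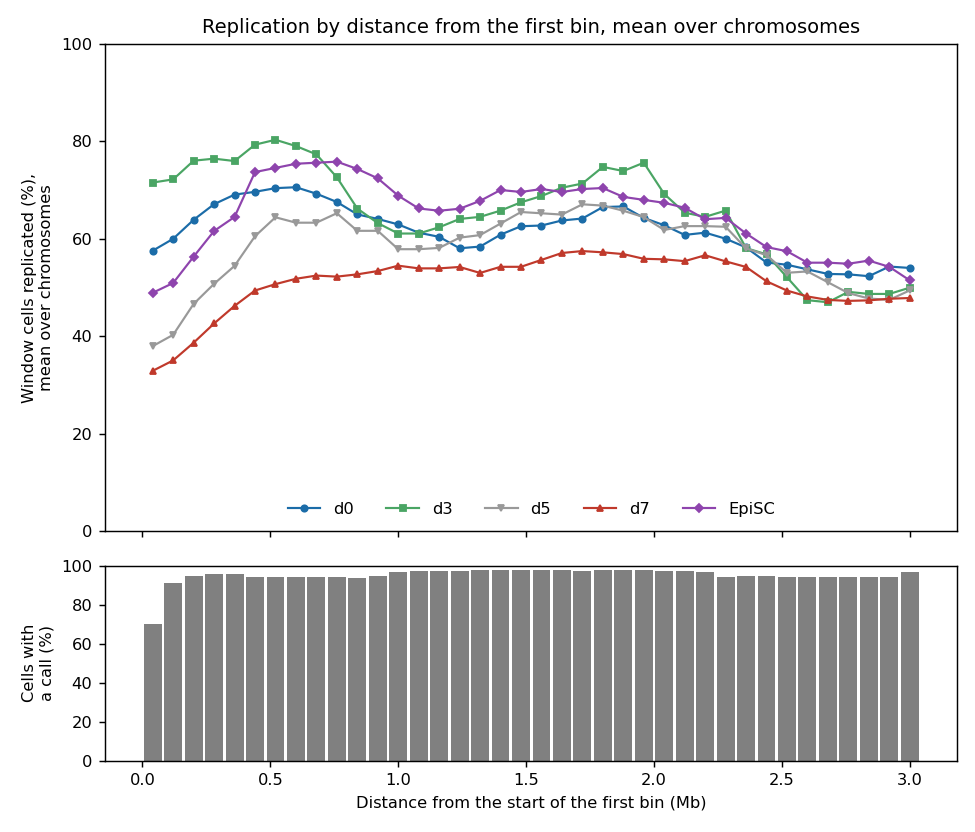
Top, mean share of window cells replicated (%) at each bin over the chromosomes with a share there, against distance from the start of the first bin (Mb), for d0, d3, d5, d7 and EpiSC. Bottom, cells with a call (%) at each bin. The d7 line lies lowest over the first 2 Mb, starting at 32.9%, while d0 starts at 57.6% and d3 at 71.6%.

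In every group the first bin of the ends was later on average than the eighth. Averaged over chromosomes, the share of the first bin was 57.6% at d0, 32.9% at d7 and 49.0% in EpiSCs, and that of the eighth bin, bin 8 of 38, was 70.6%, 51.8% and 75.4%. At d2, d3 and d6 the first bin stood at 48.5%, 71.6% and 31.9%, and the eighth at 75.7%, 79.1% and 55.6%. The d0 mean covered 15 chromosomes at the first bin and 18 at the eighth. Over chromosomes with a share in both groups, EpiSC minus d0 was -6.61 points at the first bin. At d0 the mean share was lower again by bin 13, at 62.98%. The first 5 bins had a lower mean share than bins 13 to 17 on 12 of 18 ends at d0, with a median difference of -0.825 points. On 13 of 18 ends they were lower at d7, with a median of -17.9 points, and on 15 of 19 in EpiSCs, with a median of -13.8 points. Further in, EpiSC shares were lower again, at 58.2% from 5 to below 6 Mb. The first bins have the raised G1 error given above, and its part in this dip was not tested. From the third bin on, the d7 minus d0 difference of the first zone was -17.7 points.

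The same was computed within each G1 control. For d0, the first zone stood 8.62, 12.2 and 9.97 points above the rest in the window cells of the 3 controls with at least 5 such cells (33, 18 and 5 cells). For d7 it stood at -11.4, -8.19, -5.94 and -12.7 points under 4 controls (22, 63, 5 and 11 cells), so the values of the 2 days did not overlap. A single control served both d6 and part of d7. Under it, the first zone stood at -3.79 points in the 21 d6 cells and -11.4 points in the 22 d7 cells. Present and previous cells gave 10.5 and 9.52 points at d0 and -10.1 and -7.55 points at d7. The present cells that followed the mean profile gave 13.6 points at d0 and -10.7 at d7.

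Cell by cell, the same order was seen. The replicated share of the first zone was above the cell's own score in 56 of 59 d0 cells, 34 of 35 d2 cells and 13 of 13 d3 cells. It was above it in 13 of 18 d4 cells, 11 of 20 d5 cells, 8 of 21 d6 cells and 10 d7 cells (9.90%), and in 22 of 26 EpiSC cells. The median difference from the score, at d0 and then daily from d2, was 10.3, 14.4, 20.6, 7.36, 2.77, -4.22 and -9.52 points, and 13.9 points in EpiSCs. Cells of d6 were the most spread, from -18.7 to 17.8 points (SD 11.1), against -4.16 to 22.3 at d0 (SD 5.38). The d7 cells ranged from -26.3 to 18.4 points (SD 8.11), so the d6 cells spanned most of the range of both the d0 and the d7 cells. At d6 the position of the first zone also rose with the score. Relative to the rest it stood at -8.04 points in S-phase cells with scores of 40 to 60% (14 cells). From 60 to 80%, a class that reaches beyond the window, it stood at 5.55 points (11 cells). Whether the d6 cells differed in timing beyond their score was not tested. In EpiSCs, 4 cells lay below 0, the lowest at -12.1 points.

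**Figure D2:**
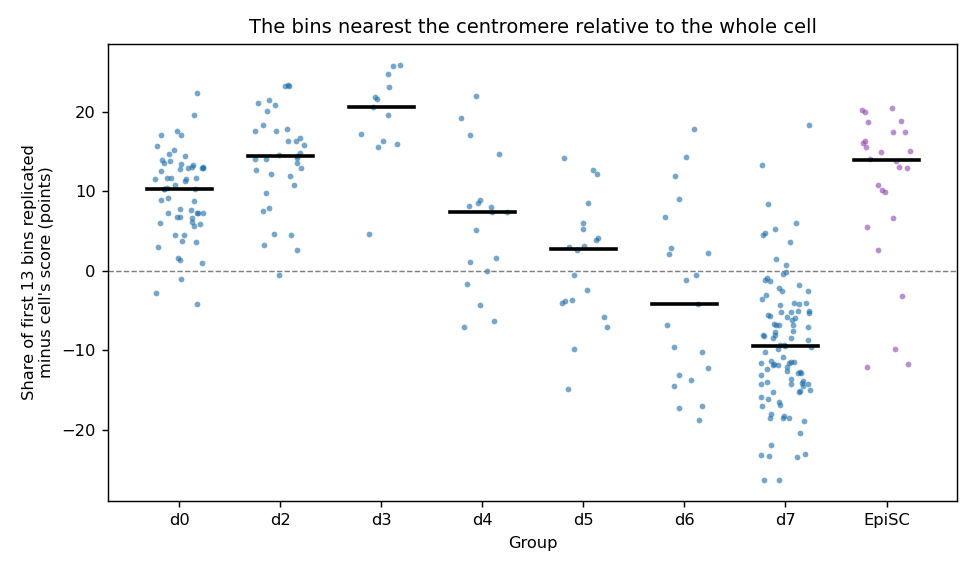
Share of the first 13 bins of all ends that was replicated in a cell, minus that cell's own score (percentage points), for each window cell (points) of each group, with the group median as a black bar. Medians go from 10.3 at d0 to 20.6 at d3 and -9.52 at d7, and the EpiSC median is 13.9.

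The first zone also stood higher at d0 than at d7 in other score classes. In S-phase cells with scores of 20 to 40%, the first zone stood 4.30 points above the rest at d0 (42 cells) and at -10.4 points at d7 (23 cells). From 60 to 80%, a class that shares cells with the window, it stood 12.3 points above at d0 (53 cells) and at -5.11 points at d7 (63 cells), and from 80 to 100% at 8.56 and 1.48 points. EpiSCs gave 4.45 points from 20 to 40% (11 cells) and 14.5 points from 60 to 80% (24 cells). A logistic curve over all S-phase cells gave each bin a midpoint, the score at which it was replicated in 50% of cells. Of 686 end bins, 333 (48.5%) had a midpoint at least 10 score points later at d7 than at d0, against 22.7% of all autosomal bins, and 68 (9.91%) at least 10 points earlier, against 23.6%. In the first zone the later bins were 64.1% of 231. Between d0 and EpiSC, 24.3% of 686 end bins had earlier and 27.1% later midpoints, against 24.1% and 20.8% of all bins, so by this measure the ends of EpiSCs were not shifted to the early side. Both later counts include bins that were early in each of these groups. There the d0 midpoint could lie at 0, the lowest value of the fit. The bin from 4880001 on chromosome 2 had midpoints of 0, 27 and 19 at d0, d7 and in EpiSCs. Its shares were 94.9%, 97.03% and 100%. How much such bins added was not tested, and the fit was not repeated without the cells that did not follow their mean profile.

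Bin by bin, a difference in share of 0.3 or more was used as the size rule. From d0 to d7, 18.3% of 687 end bins were later by this rule, against 7.71% of all autosomal bins, and 26 (3.78%) were earlier, against 7.75%. In the first zone 61 of 231 bins (26.4%) were later and 2 earlier. The later bins lay on 11 of 19 ends and the earlier ones on 3. The neighbouring bins from 6 to below 9 Mb had 84 of 686 later (12.2%), and the last 3 Mb had 73 of 722 (10.1%). Chromosome 9 held 20 of the later bins. Without it, 16.3% of 650 end bins and 22.4% of the first-zone bins were later. Leaving out the bins that start below 3.5 Mb, 87 end bins (15.4%) were. Without the cells that did not follow their mean profile, 17.7% were later and 4.34% earlier. With the 9 present d0 cells and the present d7 cells alone, 31.6% were later and 12.2% earlier, against 15.1% and 12.4% of all bins. When the present cells that did not follow the mean profile were left out as well, 29.7% were later and 2.63% earlier, against 11.2% and 6.12%.

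The ends of EpiSCs were earlier than those of d7. From EpiSC to d7, 20.95% of 692 end bins were later, against 5.74% of all bins, and 7 (1.01%) were earlier, against 4.9%. These later bins lay on 12 ends. From d0 to EpiSC, 82 of 688 end bins (11.9%) were earlier, against 7.36%, and 25 (3.63%) later, against 6.34%. The earlier bins lay on 8 ends. Without the 3 d0 cells that did not follow the mean profile, 12.3% were earlier and 3.61% later. Against the 9 present d0 cells alone, the EpiSC shares were earlier in 20.1% and later in 15.9%, against 13.5% and 13.6% of all bins. Against the 6 of these that followed the mean profile, 11.1% were earlier and 11.95% later, against 6.36% and 9.59%, so with these cells the end bins no longer leaned to the early side. These comparisons share the d0, d7 or EpiSC cells with each other and are not independent.

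**Figure D3:**
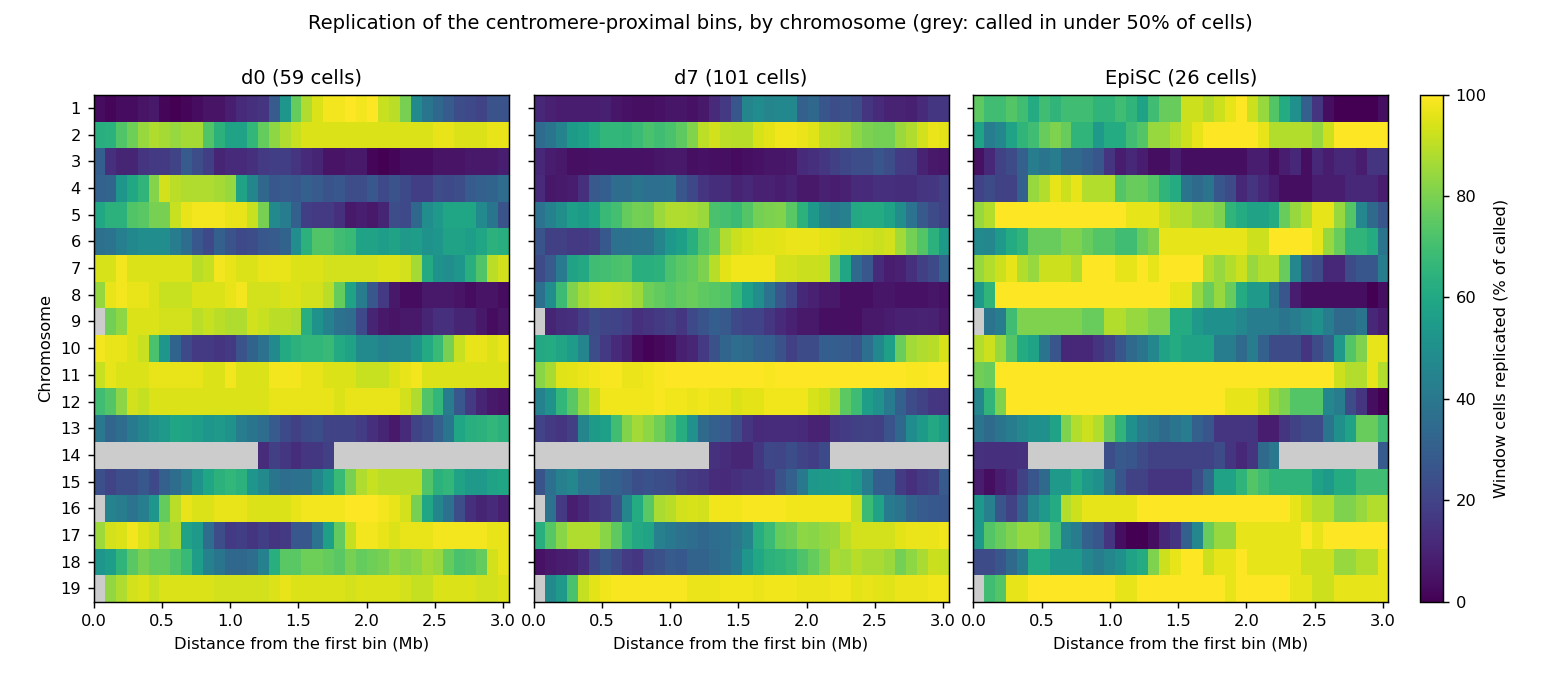
Share of window cells replicated (%, colour) at each of the 38 bins (columns, distance from the first bin in Mb) of the 19 chromosome ends (rows) at d0, d7 and in EpiSCs. Grey bins were called in under 50% of window cells. Mean shares in these groups are at least 93.7% on chromosomes 11 and 19, where the lowest bin (47.9%) is on chromosome 19 at d7, and at most 14.3% on chromosome 3, whereas chromosome 9 is early near the centromere at d0 and late at d7.

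The 19 ends covered almost the whole range of timing. At d0 their mean shares ran from 11.2% to 95.3%, with a median of 59.9%, and 10 of 19 lay above the rest of their own chromosome. At d7 they ran from 9.72% to 98.4%, with a median of 50.5%, and 9 of 19 lay above. In EpiSCs 12 of 19 did. Of 671 end bins with a share in every group, 23.4% had a share of 80% or more in each of the 8 groups, against 25.8% of all autosomal bins. Only 24 (3.58%) had a share of 20% or less in each group, against 14.1%, so bins that were late in every group were scarcer at the ends.

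The ends of chromosomes 11 and 19 were the earliest. Chromosome 11 had a mean share of 95.3% at d0, 98.4% at d7 and 97.6% in EpiSCs, and its lowest share in any group was 94.6%. Of the d0 cells, 56 of 59 had replicated more than 50% of the chromosome 11 end (94.9%, interval 85.9 to 98.9%), against 100 of 100 at d7 (interval from 96.4%). Chromosome 19 had 93.7%, 94.2% and 96.8%. Without the 3 d0 cells that did not follow the mean profile, the d0 shares were 98.4% and 96.99%. Over the 9 present d0 cells alone they were 71.7% and 64.4%, and over the 6 of these that followed the mean profile 92.02% and 83.8%. Near its start chromosome 19 was later at d7, where its first 5 bins averaged 72.1%. Of the bins early in every group, 36 lay on chromosome 11, 34 on chromosome 19, 23 on chromosome 12, 18 on chromosome 16 and 16 on chromosome 2.

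The end of chromosome 3 was late in every group, and that of chromosome 14 had a low mean share in the 7 groups that gave one. Chromosome 3 had a mean share of 11.2% at d0, 20.9% at d3, 9.72% at d7 and 14.3% in EpiSCs, while the rest of the chromosome stood at 44.8%, 43.8% and 46.2% at d0, d7 and in EpiSCs. More than 50% of this end was replicated in 4 of 59 d0 cells, 2 d7 cells (1.98%) and 0 of 26 EpiSC cells (interval up to 13.2%). The d0 share of the chromosome 3 end was 7.87% without the 3 cells that did not follow the mean profile, 26.4% over present cells and 3.16% over the present cells without them. It held 12 of the 24 bins that were late in all groups. Chromosome 8 held 8 more, all on an end whose other bins included 7 that were early in all groups. The 7 chromosome 14 bins with a share at d0 had a mean of 15.9%, and those with a share at d7 and in EpiSCs 17.6% and 20.7%. These levels differed by series: previous and present cells gave 9.07% and 54.1% at d0, and 38.9% and 7.03% at d7. At d3 no chromosome 14 bin reached the filter, and the 6 window cells with calls there had all of them replicated. The end of chromosome 13 was the third lowest at d0, at 37.3%, and stood at 60.3% at d3, 36.6% at d7 and 44.2% in EpiSCs.

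From d0 to d7 the mean share was lower on 14 of 19 ends and higher on 5, with a median difference of -6.78 points. The lower ends include chromosome 14, at -2.09 points over only 6 bins. Its difference was 1.49 points without the cells that did not follow their mean profile, 27.1 points over previous and -51.2 points over present cells. It was lower by 10 points or more on 8 ends and higher by as much on 1. EpiSC minus d0 was below 0 on 6 ends and above it on 13, with a median of 3.10 points. Chromosome 14 is among those above, at 3.91 points. Without the cells that did not follow their mean profile, d7 was lower than d0 on 12 ends and EpiSC lower than d0 on 9, with medians of -7.43 and 3.10 points. In the first zone, d7 was below d0 on 15 of 18 ends, with a median of -14.3 points, and below EpiSC on 17 of 18, with a median of -19.9 points. Midpoints of whole ends were later at d7 on 14 of 18 ends and earlier on 3. The later ones include chromosomes 11, 17 and 19, whose mean shares were higher at d7 than at d0. Chromosomes 11 and 19 had d0 midpoints of 0, the lowest value of the fit, and d7 midpoints of 14 and 9.

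**Figure D4:**
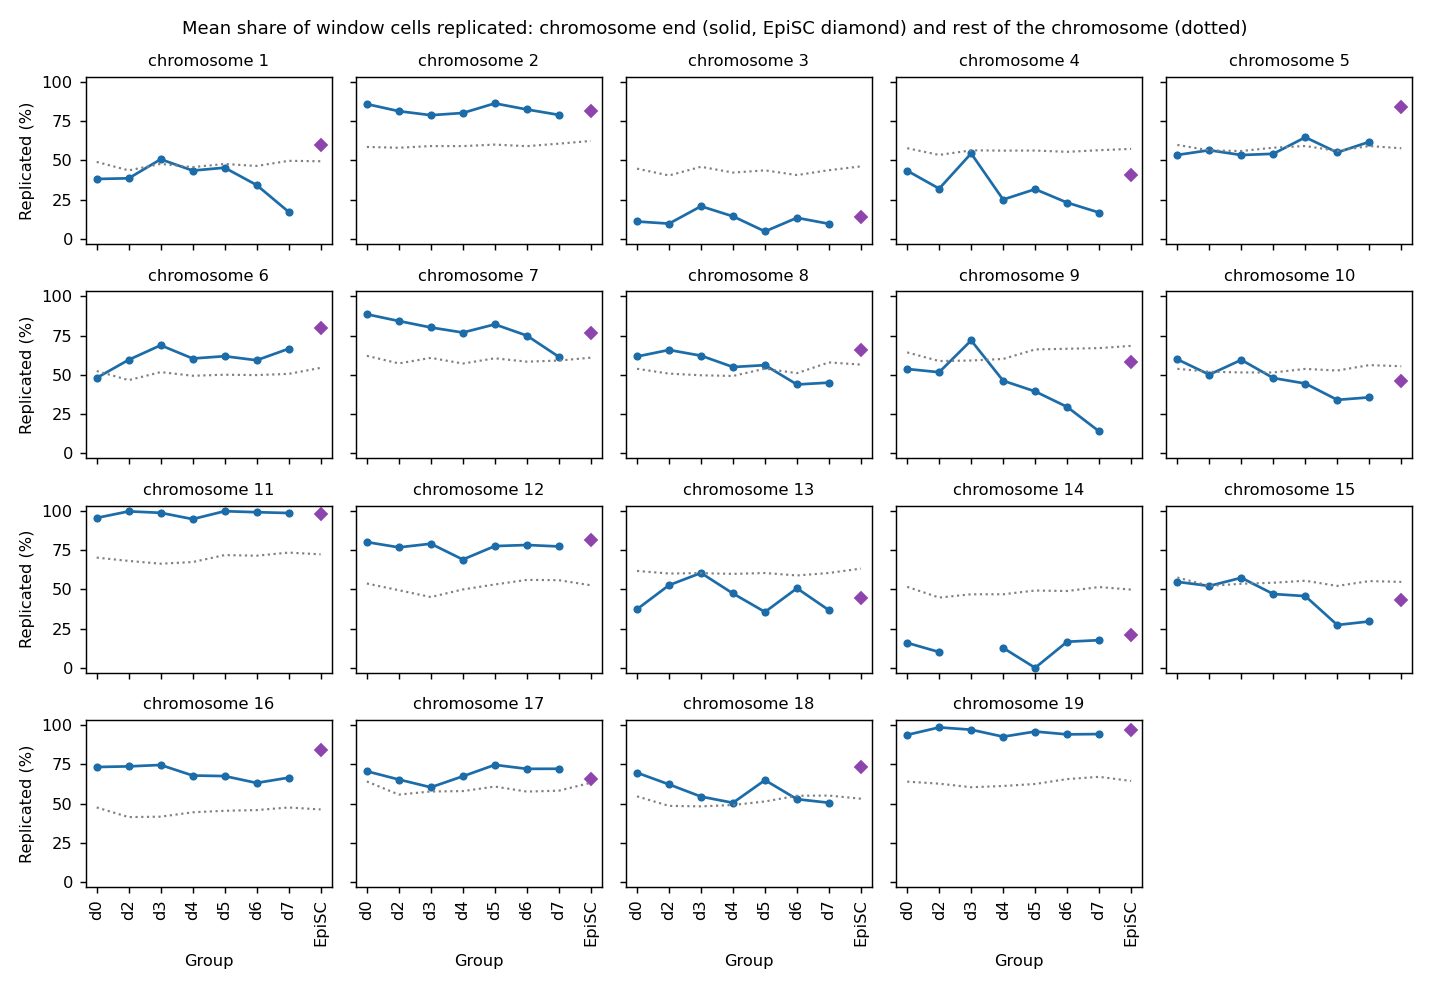
Mean share of window cells replicated (%) over the bins of each chromosome end by group: d0 to d7 as a line, EpiSC as a diamond, and the rest of the same chromosome as a dotted line. Chromosome 9 goes from 53.7% at d0 to 14.05% at d7, and chromosome 6 from 48.04% to 66.6%. Chromosome 14 has no value at d3.

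Chromosome 9 differed most. The mean share of its end, at d0 and then daily from d2 to d7, was 53.7%, 51.7%, 71.9%, 46.2%, 39.5%, 29.6% and 14.05%, a difference of -39.7 points from d0 to d7. In EpiSCs it was 57.9%. The later bins formed 1 run of 1600 kb, from 3040001 to 4640000, whose share averaged 86.98% at d0 and 19.3% at d7. Most bins of this run were replicated in 56 of 59 cells at d0 (94.9%, interval 85.9 to 98.9%), 29 of 35 d2 cells, 12 of 13 d3 cells, 11 of 18 d4 cells, 9 of 20 d5 cells, 7 of 21 d6 cells and 14 of 100 d7 cells (14%, interval 7.87 to 22.4%). In EpiSCs it was replicated in 21 of 26. The cells of d4 to d6 were thus divided, but the share of the end also rose with the score. Between scores of 40 to 60% and of 60 to 80%, it went from 36.6 to 76.1% at d4. At d5 it went from 30.6 to 74.2%, and at d6 from 18.1 to 50.9%. Whether the cells differed in timing beyond their score was not tested. Further in, from 4960001 to 5520000, the share was 8.47% at d0, 46.2% at d3, 5.29% at d7 and 43.4% in EpiSCs.

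The end of chromosome 1 held opposite changes side by side. Its bins from 2960001 to 4320000 had a mean share of 6.98% at d0 and 7.10% at d7 but 67.8% in EpiSCs. Most of this stretch was replicated in 1 of 59 cells at d0 (1.69%, interval 0.0429 to 9.09%), in 5 d7 cells and in 19 of 26 EpiSC cells (73.1%, interval 52.2 to 88.4%). Its share was higher on the days in between, reaching 21.9% at d2 and 39.7% at d5 before 20.2% at d6. The next bins, from 4320001 to 5280000, were early at d0 (88.98%) and in EpiSCs (85.6%) and late at d7 (34.7%), with 67.04% still at d6. The EpiSC-to-d7 run therefore spanned both, from 2960001 to 5280000, 2320 kb in all.

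Chromosomes 4, 7 and 15 had the next lowest differences from d0 to d7, at -26.6, -27.02 and -25.2 points. On chromosome 4 the run from 3120001 to 4080000 had a share of 77.95% at d0, 73.7% at d3, 33.3% at d4 and 27.9% at d7, and 72.1% in EpiSCs. A majority of its bins was replicated in 51 of 59 cells at d0, but in only 26.7% at d7 (interval 18.4 to 36.5%). The bins after it, from 4080001 to 4480000, had 32.5% at d0, 14.6% at d7 and 70.8% in EpiSCs.

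Chromosome 7 kept its first bins early until d6, whereas its last bins had lower shares from d2 on. Its first bins, from 2960001 to 3360000, had a share of 95.2% at d0, 99% at d5, 76.4% at d6 and 42.3% at d7, and 90% in EpiSCs. Its last bins, from 5200001 to 6000000, had 71.2% at d0, 51.4% at d2, 35.6% at d4 and 23.6% at d7, and 31.5% in EpiSCs. This second run was thus later in EpiSCs as well, and its bins from 5520001 to 6000000 formed the only run later from d0 to EpiSC. Over present cells alone the d7 minus d0 difference of this end was -7.50 points, and its EpiSC minus d0 difference went from -11.7 to 5.18 points. Over the present cells that followed the mean profile the former was -25.5 points and the latter again below 0.

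On chromosome 15 the run from 4560001 to 6000000 measured 1440 kb, with a share of 70.7% at d0, 58.6% at d5, 34.1% at d6 and 33.3% at d7. A shorter run from 3760001 to 4240000 had 59.04% at d0, 83.3% at d3, 20.7% at d7 and 34.6% in EpiSCs. The first zone of this end had 37.7% at d0, 54.1% at d3 and 31.95% at d7. Present cells alone gave differences of -43.7 points on chromosome 4 and -45.3 points on chromosome 15, and -31.9 and -46.1 points without those that did not follow the mean profile.

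The remaining runs later at d7 lay on chromosomes 8, 10, 16 and 18. On chromosome 18 the first bins, from 2960001 to 3760000, had a share of 67.8% at d0, 81.5% at d2, 29.6% at d6, 14.7% at d7 and 43.5% in EpiSCs. A majority of these bins was replicated in 40 of 59 cells at d0 and 8 cells at d7 (7.92%, interval 3.48 to 15.0%). The first bins of chromosome 10, from 2960001 to 3520000, had 85.9% at d0, 87.3% at d4, 37.9% at d5, then 24.5% at d6 and 45.97% at d7, so their lowest share was at d6. A second run there, from 4480001 to 4880000, had 63.7% at d0 and 27.7% at d7. The chromosome 10 end had the lowest EpiSC minus d0 difference of all ends, at -13.5 points. On chromosome 16, from 3280001 to 3760000, the share was 75.5% at d0, 29.2% at d5 and 29.2% at d7. On chromosome 8, from 4480001 to 4960000, it was 75.4% at d0, 65% at d5, 36.5% at d6 and 33.7% at d7.

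Only chromosomes 5 and 6 had runs that were earlier at d7, both away from the first bins. On chromosome 5 from 4400001 to 5120000 the share was 14.3% at d0, 12.8% at d3, 47.2% at d5 and 68.8% at d7, and 74.4% in EpiSCs. Cells with a majority of these bins replicated were 8 of 59 at d0 (13.6%, interval 6.04 to 24.98%) and 75.2% of those at d7 (interval 65.7 to 83.3%). On chromosome 6 the run from 4880001 to 5600000 was already at 90.8% at d2, from 55.6% at d0, and at 94.6% at d7. The run from 4000001 to 4480000 had 30.5% at d0, 58.3% at d5, 74.8% at d7 and 81.4% in EpiSCs. The first zones of both ends lay lower at d7 than at d0, by -17.7 points on chromosome 5 and -7.68 points on chromosome 6.

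Over the whole end, the d7 minus d0 difference was 8.31 points on chromosome 5 and 18.5 points on chromosome 6. In the 11 d7 cells of 1 G1 control, the chromosome 5 difference was -8.32 points, and over present cells alone the chromosome 6 difference was -0.40 points, or 9.93 points without those that did not follow the mean profile. EpiSC minus d0 was highest on these same ends, at 30.5 and 31.7 points. EpiSCs were also earlier on chromosome 16 from 5360001 to 6000000, with 26.4% at d0, 40.1% at d7 and 86.5% in EpiSCs. Chromosomes 11 and 17 came next for d7 minus d0, at 3.10 and 1.59 points. For d7 minus EpiSC only chromosomes 17 and 11 were above 0, at 6.44 and 0.843 points, and the lowest were chromosome 9 at -43.9 and chromosome 1 at -42.7 points. These small positive values turned with the cells used. The chromosome 17 values were -10.1 and -5.23 points in the 11 d7 cells of 1 G1 control. The d7 minus d0 value of chromosome 11 was -0.84 points without the cells marked by the authors' filters and 26.6 points over present cells alone, or 5.68 points over those that followed the mean profile. Over the latter the chromosome 17 value was -0.60 points.

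The genes of these ends are known here only by their order. In RefSeq's gene table for GRCm38.p6, another build than that of the calls, the first 5 protein-coding genes from the centromere of chromosome 1 are Xkr4, Rp1, Sox17, Mrpl15 and Lypla1. Sox17 encodes a transcription factor of endoderm. Those of chromosome 9 are Alkbh8, Cwf19l2, Gucy1a2, Aasdhppt and Kbtbd3, of which Gucy1a2 encodes a subunit of the nitric oxide receptor guanylate cyclase. On chromosome 5 Cdk6, a kinase of the G1 phase, comes first, and on chromosome 6 the first 5 include Calcr, the calcitonin receptor. The late end of chromosome 3 begins with Hnf4g, a nuclear receptor gene, and Zfhx4. The early end of chromosome 12 includes Dnmt3a, a de novo DNA methyltransferase, among its first 5 and that of chromosome 19 includes Cpt1a, which encodes a carnitine palmitoyltransferase of fatty acid oxidation. The first genes of chromosomes 4 and 18 are vomeronasal receptor genes (Vmn1r2, Vmn1r238) and that of chromosome 16 is an olfactory receptor gene (Olfr161). No gene was placed on a bin.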

How the data were processed

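Cells were sorted, amplified with SeqPlex and sequenced as single reads, per the labels' protocols. The submitters' processing notes name cutadapt, BWA 0.7.10-r789, Picard and mm9. The authors corrected cells with 1 of 14 merged G1 controls and deposited, per the file headers, a score per bin, a call of 1 (replicated), -1 (not replicated) or 0 (no data), and a replication score per cell as a fraction. Recomputed here in percent, the deposited fraction came out within 5e-08 points. No read depth was used. For 7 G1 cells the labels disagreed on the day and they were left out of every group.

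The filter on bins (50% of window cells called), the size rule (a share difference of 0.3), runs of at least 5 bins and the logistic midpoint (cells with scores of 5 to 95%, 1% of calls taken as wrong) are given where used. Ends named in full were the 3 highest and 3 lowest at d0, from d0 to d7 the 4 largest differences each way, the 2 from d0 to EpiSC and from EpiSC to d7, the 3 with the lowest call rate, and every run. End differences were taken over bins with a share in both groups. The members, zones and lists were chosen with earlier results of these data known. The steps were tested on simulated data. Alternatives covered the window, the filter, the first bins, the series of origin, the size rule, score matching and the midpoint. Leaving out cells below an area under the curve of 0.8, cells marked by the authors' filters, and d7 cells of other G1 controls, and combining present-series cells with the first of these, was added after seeing the data. No sequence is shown, since no genome of the files' build was used here. Calculations used Python 3.11.15, numpy 2.4.6, pandas 2.3.3, scipy 1.17.1 and matplotlib 3.10.9.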

Additional observations from a re-analysis of the deposited data

How the results depend on the processing

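No paired analysis was possible because the replicate numbers only count the cells within a group and name no culture or pair. Under the alternatives, the mean share over all ends ran from 58.2 to 65.9% at d0, 47.3 to 53.1% at d7 and 64.8 to 66.5% in EpiSCs. These values lay within the binomial interval of the main value in 27 of 27 cases, as did the call rate over window cells (95.4%) and G1 cells (95.3%). For shares, here and for single ends below, that interval treats a mean share as 1 count of a group's window cells. It is wide (44.07 to 70.4% around 57.6% of 59 d0 cells), so staying within it says little. The percentage of compared end bins past the size rule moved more. From d0 to d7, earlier bins (3.78%) came to 6.22% with previous-series and 12.2% with present-series cells, 7.42% at a threshold of 0.2, 1.89% at 0.4 and 9.91% by midpoint. Later bins (18.3%) came to 31.6% with present-series cells, 29.7% with those that followed the mean profile, 28.97% at 0.2, 11.4% at 0.4 and 48.5% by midpoint. From d0 to EpiSC, earlier bins (11.9%) came to 20.1% with present-series cells and 24.3% by midpoint. Later bins (3.63%) came to 15.9% with present-series cells, 11.95% with those that followed the mean profile, 9.74% at 0.2, 1.60% at 0.4, 7.45% with d0 cells matched in score and 27.1% by midpoint. Later bins outnumbered earlier ones from d0 to d7 in all of these, and the reverse held from d0 to EpiSC except by midpoint and with the present-series cells that followed the mean profile (11.1% earlier). Among named ends the sign turned for chromosome 7 from d0 to EpiSC (5.18 points) and chromosome 6 from d0 to d7 (-0.40) with present-series cells, for chromosome 5 (-8.32) and chromosome 17 (-10.1 from d0, -5.23 from EpiSC) with the 11 d7 cells of 1 G1 control, for chromosome 11 (-0.84) without the authors' marked cells, and for chromosome 17 from d0 to d7 (-0.60) with the present-series cells that followed the mean profile. The mean share of single ends moved beyond its interval in 28 of 454 values, 14 of them with present-series cells (chromosome 11 at d0 from 95.3 to 71.7%, 19 from 93.7 to 64.4%, 3 from 11.2 to 26.4%) and 6 with those that followed the mean profile. The cause was not tested. With 13 cells at d3 and 18 at d4, a single cell moves the share of a bin by several points.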
